A study of Drosophila melanogaster with 19 samples.

Results

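Small nucleolar RNAs (snoRNAs) and the Uhg genes that host some of them were followed in *Drosophila melanogaster* embryos that lacked *chiffon* or carried a *chiffon* transgene. All gene entries of the deposited table were searched for FlyBase symbols that start with snoRNA: or with Uhg and a number. Of 17807 genes, 264 matched, and 139 of these had at least 50 raw counts summed over the 19 libraries. They were 133 snoRNAs and 6 of the 7 Uhg genes. Another 75 of the 264 had between 1 and 49 counts and 50 had none. The members just inside the limit were snoRNA:U14:30Eb and snoRNA:Me18S-C1366 at 50 counts each, and those just outside were snoRNA:Psi28S-3305a at 43, snoRNA:Me18S-A1576 at 42 and snoRNA:Psi18S-525j at 37.

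The libraries were made from total RNA of hand-picked embryos at stages 12 to 14, several embryos to a library, depleted of rRNA. The null embryos (n = 4) carried 2 different null alleles of *chiffon*, ETBE3 and DsRed, on chromosome 2 and were recognised by GFP, from *Actin-Gal4* on 1 parent's chromosome and *UAS-10XGFP* on the other's. Embryos of 3 further genotypes, ΔN (n = 4), FLWF24 (n = 4) and FL (n = 3), carried the same null alleles and reporters with a *chiffon* rescue transgene under *chiffon* regulatory regions. FL encodes the full-length protein. In ΔN the N-terminal part is missing, and in FLWF24 translation of it is stopped early, and both leave Chiffon-B, a subunit of the CHAT acetyltransferase, without Chiffon-A of the DDK kinase. The WT embryos (n = 4) were the parental *act-Gal4>GFP* stock without these *chiffon* alleles, so WT differed from the other genotypes in stock as well as in *chiffon*, and the 2 cannot be told apart. Replicates were separate pools of embryos. Whole embryos were sequenced, so fewer cells of a type and less RNA per cell cannot be told apart.

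snoRNAs are short, stable, non-coding RNAs of the nucleolus that guide the chemical modification of ribosomal RNA by base pairing. Box C/D snoRNAs carry Fibrillarin and direct 2′-O-methylation, and box H/ACA snoRNAs carry the dyskerin homologue Nop60B and direct the change of uridine to pseudouridine. In flies most lie in introns of other genes and are trimmed out of the spliced-out intron, so that the host gene and the snoRNA start from the same transcript. Hosts are often ribosomal protein genes. The Uhg genes (U snoRNA host genes) are spliced, non-coding hosts. The symbols give the modified base: Psi stands for a pseudouridine guide and Me for a methylation guide, followed by the rRNA and the position it guides.

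By symbol, 88 members were H/ACA snoRNAs, 29 were C/D snoRNAs, 16 were snoRNAs without a class in the symbol, and 6 were Uhg genes. They lay on chromosome arms 2R (46 members), 3R (31), 3L (25), X (24) and 2L (13). An annotated host on the same strand was found for 119 of the 133 snoRNAs, in 53 genes. Ribosomal protein genes were 21 of these hosts and held 54 of the snoRNAs, while Uhg genes held 7. On the opposite strand, 9 members overlapped an exon of another gene. They included Uhg1 (CG46315 and CG6424), Uhg4 (Ctu1) and Uhg8 (atk), whose reads may not be separable from those of the overlapping genes, since the study does not say whether its libraries kept the strand.

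Libraries held 5161281 (ΔN replicate 4) to 21621677 (null replicate 3) gene counts, and 4267 to 32065 counts of the 139 members, that is 0.0827% to 0.279% of gene counts. Between 90 and 128 of the members had at least 1 count in a library. The *chiffon* transcript checked the null label only. It stood at 22.3 to 38.0 CPM (read counts scaled to the total of the library) in null and at 213.2 to 548.6 CPM elsewhere. The ranges of FL (222.2 to 248.8 CPM), FLWF24 (220.6 to 313.3) and WT (213.2 to 269.8) overlapped, so these labels were not checked. In ΔN, replicates 1 to 3 stood at 548.6, 482.75 and 497.0 CPM, while replicate 4, at 250.4, lay within the FLWF24 and WT ranges. The label of ΔN replicate 4 was therefore not checked either. A stage score, the mean log2 level of late muscle and cuticle genes minus that of early genes, was 0.97 to 4.06 in null, -3.57 to -1.63 in FL, -1.46 to -0.01 in FLWF24, -3.09 to 1.36 in ΔN and -1.02 to 1.04 in WT. Of the 4 null libraries, 3 scored above all 15 libraries of the other genotypes. The FLWF24 libraries all scored above the FL libraries. The part of stage in the results was not tested beyond the fit with this score as covariate, given where it changed a call. The neuronal gene *elav* (209.3 to 675.1 CPM) and the epidermal gene *grh* were present in all libraries, while the follicle cell gene Cp16 was at 0 in all 19. Genes of late neurons and muscle moved with null: *brp*, of the synapse, had a mean of 286.3 CPM in null, 83.4 in WT and 18.2 in FL, *nSyb*, of synaptic vesicles, 176.9, 60.7 and 19.7, and *Mhc*, the muscle myosin heavy chain, 3289, 1079 and 89.8. In FLWF24 and ΔN *Mhc* averaged 965.9 and 477.0 CPM. The part of these genes in the results was not tested.

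A few snoRNAs dominated. snoRNA:Psi28S-291 (FBgn0065064, 3R, 11223571 to 11223790, BDGP6, plus strand), an H/ACA snoRNA in an intron of RpL3, had the highest mean level, 334.7 CPM over the 19 libraries (SD 161.9). A pair of U3 genes followed, encoding the C/D snoRNA that takes part in cleaving the rRNA precursor rather than in modifying it, with 223.2 CPM (SD 92.4) for snoRNA:U3:54Aa and 207.7 CPM (SD 79.5) for snoRNA:U3:54Ab. These U3 genes lie 1886 bases apart on opposite strands of 2R and are near-identical copies, so the split of reads between them is uncertain. Their ratio stayed between 0.774 and 1.36 in the 19 libraries. Together these 3 snoRNAs held 48.9% of all counts of member snoRNAs, and the 10 most abundant held 70.8%. In contrast, 77 of the 139 members had fewer than 500 counts over all libraries.

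The rest of the 10 most abundant were snoRNA:Psi28S-3342 (108.3 CPM, SD 74.5), snoRNA:Psi28S-1175c in RpS16 (60.1, SD 34.9), snoRNA:Psi28S-2622 (50.4, SD 29.6), snoRNA:Tudor-SN-a in Tudor-SN (50.2, SD 20.4), snoRNA:Psi28S-2566 in CG3902 (32.5, SD 17.2), snoRNA:Psi18S-1377d in RpS7 (26.3, SD 14.1) and snoRNA:Or-aca5 in Uhg4 (25.997, SD 13.9). U3 apart, no C/D snoRNA was among them. The most abundant C/D methylation guide was snoRNA:Me28S-A1322, in an intron of eEF1alpha1, with 14.99 CPM.

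The class of a snoRNA went with its length and with how well it was counted. Of all 117 H/ACA entries, with a median length of 140.0 bases, 75.2% reached 50 counts, against 26.1% of the 111 C/D entries, with a median length of 80.0 bases. Across classes, 108 of 145 snoRNAs over 120 bases were members (74.5%), and 25 of 112 of up to 120 bases (22.3%). Length and class cannot be told apart here, and whether short RNAs were lost on the way to the libraries was not tested. Per kilobase of exon, the median level of the member H/ACA snoRNAs was 13.8 CPM, that of the C/D snoRNAs 8.36 CPM and that of the Uhg genes 29.5 CPM.

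**Figure D1:**
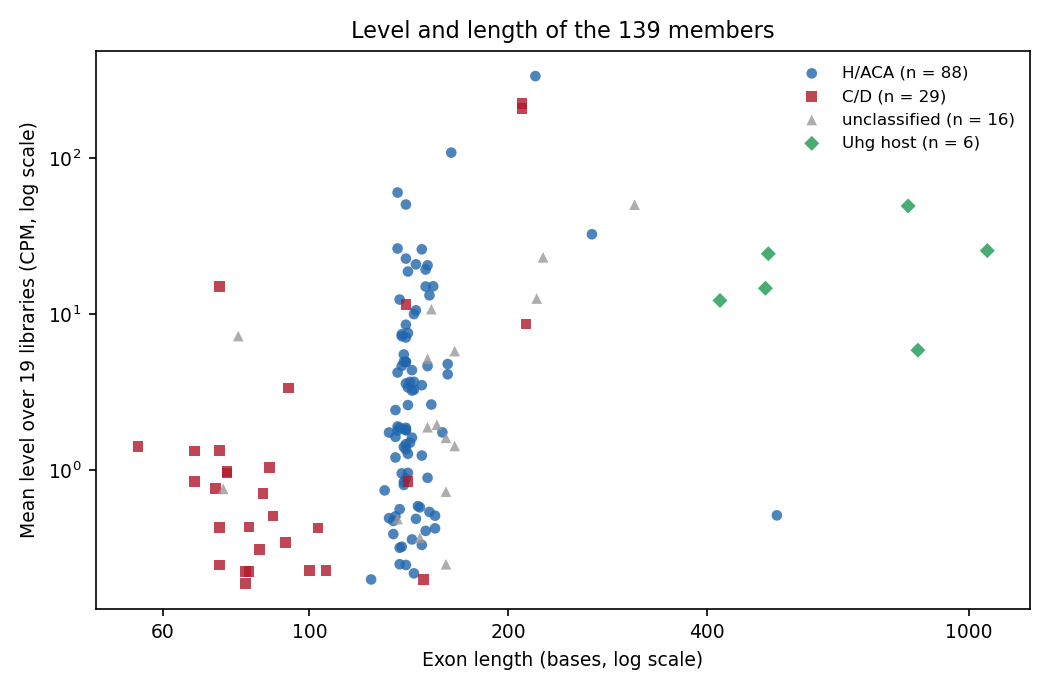
Mean level of each of the 139 members over the 19 libraries (CPM, log scale) against its exon length (bases, log scale), with classes marked by colour and shape. Most H/ACA snoRNAs sit near 140 bases over the whole range of levels, C/D snoRNAs other than the U3 pair sit below 14.99 CPM or at it, and snoRNA:Psi28S-291 and the U3 pair stand above all others.

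The summed level of the 133 snoRNAs varied more between libraries than that of the 6 Uhg genes, which hosted 7 of the 133. The summed snoRNA level ran from 683.4 CPM in ΔN replicate 4 to 2650 CPM in FLWF24 replicate 3. The genotype mean was lowest in FL, at 992.5 ± 113.2 CPM (SD, n = 3). It was 1252 ± 497.2 CPM in ΔN, 1534 ± 734.2 in null, 1863 ± 498.1 in WT and 2129 ± 511.3 in FLWF24 (n = 4 each). The 4 FLWF24 libraries (1499 to 2650 CPM) lay above the 3 FL libraries (878.8 to 1105 CPM), whereas null (904.9 to 2579) and ΔN (683.4 to 1761) each spanned most of the range. Null replicate 1, at 2579 CPM, stood well above the other null libraries (904.9 to 1476 CPM), and it was also the second smallest library of the set, with 6282271 gene counts.

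The sums of both classes showed this order at its ends. H/ACA snoRNAs summed to 628.7 ± 70.4 CPM in FL and 1366 ± 401.3 in FLWF24, with ΔN at 675.6 ± 219.4, null at 938.3 ± 548.8 and WT at 1183 ± 334.0. C/D snoRNAs, most of them U3, summed to 288.4 ± 40.7 CPM in FL, 611.6 ± 94.6 in FLWF24, 475.2 ± 250.7 in ΔN, 496.4 ± 155.1 in null and 497.9 ± 147.2 in WT. The 6 Uhg genes ran from 79.6 to 204.5 CPM, with the lowest genotype mean in null (100.5 ± 33.5) and the highest in FLWF24 (174.7 ± 30.4). No test was made of these sums.

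**Figure D2:**
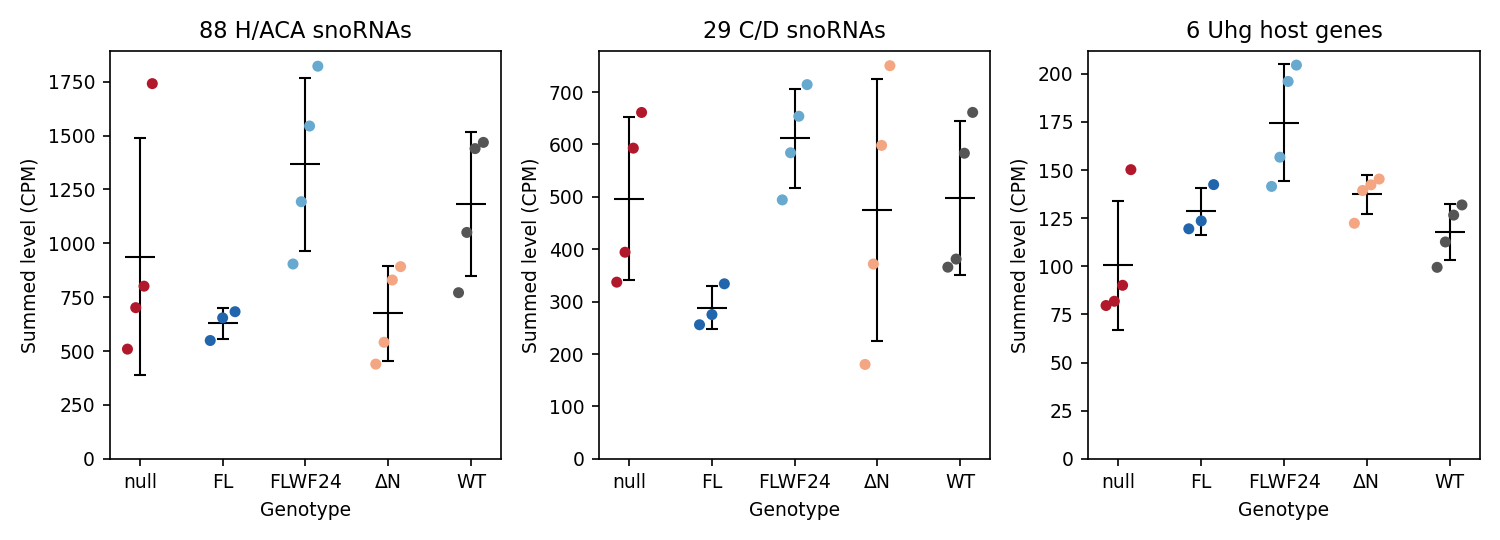
Summed level (CPM) of the 88 H/ACA snoRNAs, the 29 C/D snoRNAs and the 6 Uhg genes in each library, by genotype; points are libraries and bars the mean ± SD. The 3 FL libraries are low in both snoRNA classes, and the single high null point among H/ACA snoRNAs (1741 CPM) is null replicate 1.

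The well-counted snoRNAs moved up and down together across libraries. For the 40 snoRNAs with at least 1000 counts, the correlation of the log2 level with that of the sum of all other snoRNAs, over 19 libraries, had a median r of 0.70, exceeded 0.5 for 32 and was positive for 39. All of these points share libraries, depth and scaling. The summed level was compared with 3 measures of the library, with p-values from 100000 permutations adjusted over the 3. None of the 3 passed. For the share of reads that aligned to more than 1 place r was 0.28 (permutation p = 0.238, adjusted p = 0.671) and rho 0.37 (permutation p = 0.119, adjusted p = 0.219), and r was 0.59 without the 2 libraries farthest from the median share. For the stage score r was 0.16 (permutation p = 0.512, adjusted p = 0.671) and rho 0.17 (permutation p = 0.487, adjusted p = 0.487), with r = -0.01 without the farthest 2. For depth, as log2 gene counts, r was -0.10 (permutation p = 0.671, adjusted p = 0.671) and rho -0.35 (permutation p = 0.146, adjusted p = 0.219), with r = -0.37 without the farthest 2. On deviations from genotype means the 3 values of r were 0.26, -0.04 and -0.16.

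Changes between genotypes were tested with edgeR's quasi-likelihood test over 11978 genes, with Benjamini-Hochberg adjustment over all of them. Of the 139 members, 127 passed the filter on low counts (121 snoRNAs and 6 Uhg genes), so counts below refer to these 127. A gene was called at an adjusted p under 0.05 and a log2 change of at least 0.5. In 8 comparisons, 2 calls fell on members. Both were lower than in WT: Uhg1 in null and snoRNA:CG32479-a in ΔN.

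Uhg1 (FBgn0045800, 2R, 17699097 to 17703344, plus strand) was lowest in null. It stood at 15.9, 8.98, 10.6 and 13.7 CPM in the 4 null libraries. The FL libraries held 19.8, 27.97 and 29.6 CPM, the FLWF24 libraries 20.02, 20.2, 35.1 and 19.8, and the ΔN libraries 24.6, 30.1, 29.1 and 23.8. In WT it stood at 38.2, 29.1, 48.7 and 39.1 CPM. Every null library was thus below each of the 15 others, and the 3 transgenic genotypes lay between null and WT with some overlap with WT. Reads of Uhg1 may not be separable from those of the genes that overlap its exons on the opposite strand, as given above. Against WT, Uhg1 fell by 1.84 on the log2 scale in null (SE 0.35, edgeR adjusted p = 0.0105). It was the only call among the 127 members in that comparison (0.787%), where 0.634% of all tested genes were called. Against FL the log2 change of null was -1.37 (SE 0.43, adjusted p = 0.168), which did not pass. The call was lost with the stage score as covariate (adjusted p = 0.0749), without null replicate 2 (0.0565) and without WT replicate 3 (0.0633), at log2 changes of -1.78, -1.71 and -1.71.

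The snoRNAs that Uhg1 hosts could say little, since a single one, snoRNA:Me28S-A3407a, was a member, with 260 counts over all libraries. Among the other Uhg genes in null against WT, adjusted p ran from 0.400 to 0.937, and the log2 changes ran from -1.28 (Uhg4) to 0.68 (Uhg5). No snoRNA was called in null against WT. Of the 127 members, 9 had an unadjusted p under 0.05 (7.09%), against 11.5% of all tested genes. In null against FL no member was called, where 0.501% of all genes were, a share that rests on the fit: 60 genes were called as reported, 1308 with no RUV factor, 2 with the stage score as covariate and 311 without null replicate 3. There 1 member had an unadjusted p under 0.05 (0.787% against 11.7%), which was Uhg1.

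snoRNA:CG32479-a (FBgn0263461, 3L, 891250 to 891475, plus strand) is an snoRNA without an assigned class in an intron of Usp10, which encodes a ubiquitin-specific protease. It was high in WT, at 79.5, 40.7, 79.3 and 44.4 CPM. The null libraries held 21.9, 3.39, 6.14 and 12.9 CPM, and the FL libraries 6.48, 7.12 and 13.9. In FLWF24 it stood at 34.3, 11.8, 18.98 and 23.2 CPM, and in ΔN at 6.39, 12.3, 9.21 and 6.987. No library of another genotype reached the lowest WT library.

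Relative to WT, snoRNA:CG32479-a in ΔN fell by 2.76 on a log2 scale (SE 0.53, edgeR adjusted p = 0.0429), 1 of 127 members called (0.787%) where 0.0751% of all genes were. The same snoRNA had log2 changes against the shared WT libraries of -2.57 in null (SE 0.61, adjusted p = 0.0502), -2.69 in FL (SE 0.58, adjusted p = 0.0690) and -1.46 in FLWF24 (SE 0.49, adjusted p = 0.337), none of which passed. Alternative fits called it in null against WT in 11 of 27 cases, in FL against WT in 3 and in FLWF24 against WT in 0. In FL against WT no member was called (0.0918% of all genes), nor in FLWF24 against WT (0.184%). An unadjusted p under 0.05 was found for 13 members in FL against WT (8.73% of all genes, 10.2% of members), 7 in FLWF24 against WT (10.1% and 5.51%) and 10 in ΔN against WT (10.5% and 7.87%). The ΔN call lay close to the threshold and held in 7 of 27 alternative fits, while the log2 change stayed between -2.97 and -2.48. With 1 library removed at a time, 4 of 19 fits kept the call: those without null replicate 1, 2 or 3 or FL replicate 4. Leaving out any one of the other libraries ended it, with an edgeR adjusted p up to 0.157.

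The neighbour snoRNA:CG32479-b, which lies 759 bases away in the same host, had another pattern. It was highest in FLWF24, at 23.5 ± 7.96 CPM (SD, n = 4), followed by ΔN at 15.8 ± 6.78 and WT at 9.47 ± 5.32 (n = 4 each). It averaged 7.78 ± 0.51 CPM in FL (n = 3) and 5.14 ± 5.65 in null (n = 4). The ratio of -a to -b was 3.39 to 14.6 in WT and 0.327 to 1.82 in FL, FLWF24 and ΔN. In null it was 0.836 to 10.3, where -b was down to 1.26 CPM. The host Usp10 stood at 162.1 ± 25.6 CPM in WT with genotype means of 198.25 to 221.5 CPM elsewhere. Its largest log2 change against WT was 0.47 in null (SE 0.21, adjusted p = 0.400), opposite in sign to that of snoRNA:CG32479-a.

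**Figure D3:**
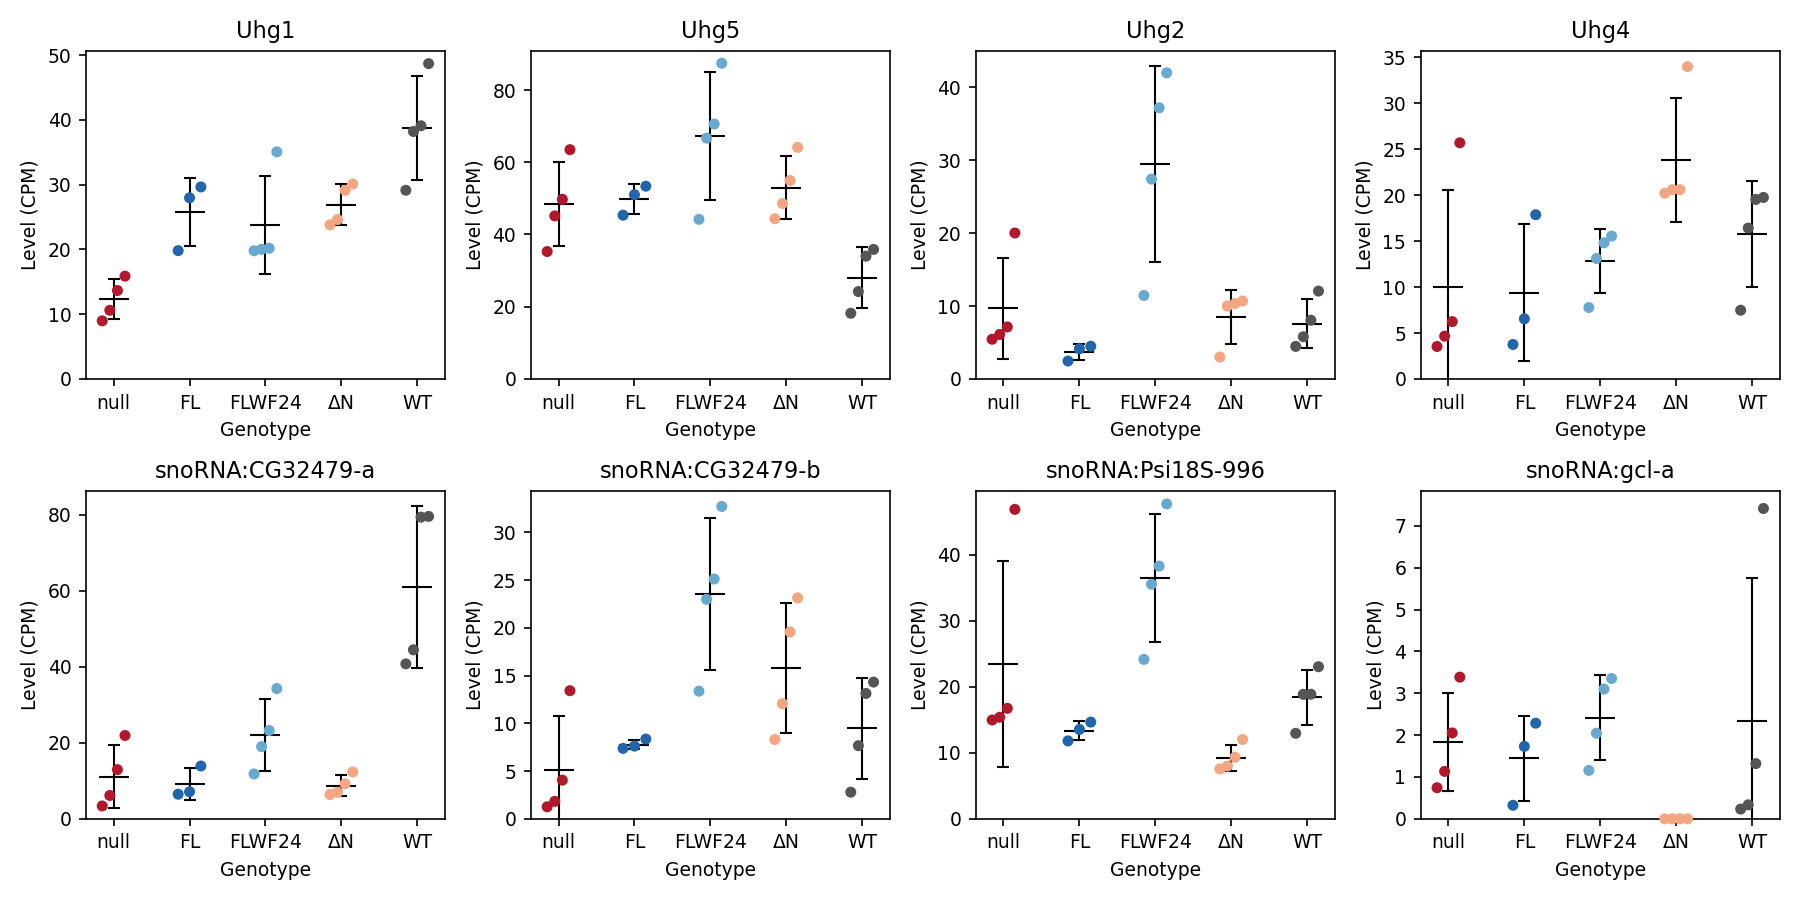
Level (CPM) of 4 Uhg genes and 4 snoRNAs in each library, by genotype; points are libraries, bars the mean ± SD, clipped where they would pass below 0. Uhg1 is lowest in the 4 null libraries, snoRNA:CG32479-a is highest in the 4 WT libraries, and snoRNA:gcl-a is at 0 in all 4 ΔN libraries.

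Uhg5 (FBgn0083123, 2R, 14621601 to 14624498, plus strand), the most abundant of the Uhg genes, was low in WT. Its WT libraries held 34.0, 18.2, 35.9 and 24.2 CPM. The others held 35.3 to 63.5 CPM in null, 45.3 to 53.4 in FL, 44.2 to 87.4 in FLWF24 and 44.4 to 64.1 in ΔN, and only the lowest null library fell within the WT range. The log2 change against WT was 1.25 in FLWF24 (SE 0.27, edgeR adjusted p = 0.0524), 0.96 in ΔN (SE 0.28, adjusted p = 0.247), 0.89 in FL (SE 0.30, adjusted p = 0.327) and 0.68 in null (SE 0.31, adjusted p = 0.400). None passed, and these 4 comparisons share the WT libraries. The 2 member snoRNAs in its introns had 108 counts in all.

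Uhg2 (FBgn0063449, 2L, 9893805 to 9895003, minus strand) was high in FLWF24, at 42.0, 11.5, 27.4 and 37.2 CPM. It stood at 4.49, 4.14 and 2.46 CPM in FL, 3.01 to 10.7 in ΔN and 4.47 to 12.1 in WT. In null it stood at 5.45 to 7.14 CPM in 3 libraries and at 20.03 in replicate 1. The log2 change of FLWF24 against FL was 2.99 (SE 0.75, edgeR unadjusted p = 0.00057, adjusted p = 0.510), the largest in size among the Uhg genes in the 8 comparisons, and was called only with DESeq2 (adjusted p = 0.00186). Against WT it was 1.96 (SE 0.62, adjusted p = 0.305).

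The other Uhg genes gave no call. Uhg4 stood at 20.2 to 34.0 CPM in ΔN, at 3.53 to 25.7 in null and at 3.75 to 17.9 in FL, with log2 changes of 1.24 for ΔN against FL (SE 0.64, adjusted p = 0.505) and 1.13 for ΔN against FLWF24 (SE 0.59, adjusted p = 0.456). Uhg8 had its lowest genotype mean in null (15.7 ± 6.98 CPM) and its highest in FLWF24 (34.5 ± 8.71). Uhg3 stayed at 1.66 to 12.5 CPM, and its exons overlap annotated snoRNAs on the same strand.

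FLWF24 and ΔN, which both leave Chiffon-B, were compared with FL and with each other. Stage scores did not overlap between FLWF24 (-1.46 to -0.01) and FL (-3.57 to -1.63). Stage and transgene therefore cannot be told apart between these genotypes. In FLWF24 against FL no member was called (0.025% of all genes). There 13 of 127 members had an unadjusted p under 0.05, all 13 with higher levels in FLWF24 (10.2%), against 3.72% of all genes in that direction, and 70.9% of the members had a positive log2 change against 50.8% of all genes. The median log2 change was 0.63 over the 121 snoRNAs and 0.01 over all genes. By class it was 0.71 over 84 H/ACA snoRNAs and -0.15 over 22 C/D snoRNAs. The C/D median rests on low counts, since the median level of the 29 C/D members was 0.76 CPM. Of the C/D snoRNAs with the most counts, snoRNA:U3:54Aa (1.32), snoRNA:U3:54Ab (1.16), snoRNA:Or-CD2 (1.27) and snoRNA:U3:9B (0.72) had positive log2 changes. That of snoRNA:Me28S-A1322 was -0.50. The smallest p among snoRNAs were those of snoRNA:Psi28S-291 (log2 change 1.15, SE 0.37, adjusted p = 0.662), snoRNA:Psi18S-996 (1.34, SE 0.46, adjusted p = 0.672) and snoRNA:Psi28S-2622 (1.33, SE 0.45, adjusted p = 0.672).

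snoRNA:Psi28S-291 stood at 478.5, 326.3, 704.2 and 537.5 CPM in FLWF24 and at 189.6, 234.4 and 219.1 CPM in FL, with no overlap. The WT libraries held 576.5, 283.8, 521.2 and 374.7 CPM, the null libraries 313.4, 161.1, 137.9 and 246.5, and the ΔN libraries 303.1, 387.5, 224.1 and 139.4. Its host RpL3 had genotype means of 1882 to 2283 CPM.

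snoRNA:Psi18S-996 (FBgn0083014, 3L, 261803 to 261953, minus strand), an H/ACA snoRNA in Tudor-SN, stood at 38.3, 24.1, 35.5 and 47.7 CPM in FLWF24 and at 7.99, 12.0, 9.33 and 7.55 CPM in ΔN. The 2 genotypes did not overlap. The log2 change of ΔN against FLWF24 was -1.88 (SE 0.42, edgeR adjusted p = 0.0549), just short of a call, and 6 of 27 alternative fits called it. The log2 change was -2.07 to -1.67 over all 27. FL held 11.8 to 14.7 CPM, WT 12.9 to 23.0, and null 14.96 to 16.7 except for 46.9 in replicate 1. Its neighbour snoRNA:Tudor-SN-a, 1522 bases away in the same host, was highest in WT (71.3 ± 12.3 CPM) and did not share the low ΔN level (46.5 ± 16.1 CPM in ΔN, 28.1 ± 14.0 in FL). The ratio of Psi18S-996 to Tudor-SN-a was 0.118 to 0.269 in ΔN and 0.146 to 0.379 in WT, which overlapped. It was 0.306 to 0.772 in FL, 0.439 to 0.723 in null and 0.422 to 0.927 in FLWF24. snoRNA:Tudor-SN-a had log2 changes against WT of -1.15 in null (SE 0.34, adjusted p = 0.154) and -1.09 in FL (SE 0.36, adjusted p = 0.311).

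In ΔN against FLWF24 no member was called (0.342% of all genes), and 15 members had an unadjusted p under 0.05, all lower in ΔN (11.8%, against 7.85% of all genes in that direction). The median log2 change there was -0.72 over 84 H/ACA snoRNAs and -0.08 over 22 C/D snoRNAs, against -0.06 over all genes. Of the C/D snoRNAs with the most counts, snoRNA:U3:54Aa (-0.38), snoRNA:U3:54Ab (-0.44) and snoRNA:Or-CD2 (-0.39) had negative log2 changes. Those of snoRNA:U3:9B (0.44) and snoRNA:Me28S-A1322 (0.09) were positive. In ΔN against FL no member was called (0.0167% of all genes) and 4 had an unadjusted p under 0.05 (3.15%, against 10.6%). Against WT, the median log2 change of the 121 snoRNAs was -0.55 in ΔN, -0.45 in FL, -0.44 in null and 0.13 in FLWF24, comparisons that share the WT libraries, with medians over all genes between -0.11 and 0.03. Of the 127 members 70.9% in ΔN, 68.5% in FL and 67.7% in null had a negative log2 change, against 58.4%, 53.5% and 48% of all genes. Members of 1 library share its RNA and scaling, so they are not independent.

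Members with few counts were often at 0 throughout a genotype. This held for 18 of the 139 members, with 53 to 405 counts in all, of which 9 were at 0 in all ΔN libraries, 8 in null, 5 in WT, 3 in FL and 1 in FLWF24. These numbers cannot be compared between genotypes, which differ in depth and number of libraries. The ΔN libraries held 5161281 to 15416304 gene counts and the 3 FL libraries 15184670 to 16204777. Of the 18 members, the one with the most counts was snoRNA:gcl-a (FBgn0263463, 2R, 8724905 to 8725065, plus strand), in an intron of *gcl*. It had 0 counts in all 4 ΔN libraries. It had 6, 46, 15 and 26 counts in null, 27, 5 and 39 in FL, and 44, 30, 10 and 41 in FLWF24. In WT it had 3, 3, 92 and 18. The pooled ΔN libraries were given a floor of 3 counts (0.0757 CPM). At that floor ΔN was 33.2-fold below FLWF24, 19.5-fold below FL, 23.7-fold below null and 32.0-fold below WT, where 1 library held most of the counts. The floor covers counting error in ΔN only and not the spread between libraries, so these ratios are not lower limits. The edgeR adjusted p was 0.293 against FL, 0.247 against WT and 0.165 against FLWF24, and none passed. DESeq2 called all 3 (adjusted p = 0.0154, 0.00545 and 0.00307). The host *gcl* itself was present in ΔN, at 114.0 ± 8.36 CPM (SD, n = 4), against genotype means of 92.7 to 134.1 CPM elsewhere.

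snoRNA:Psi28S-3327c, an H/ACA snoRNA in RpS4, had 1 count in the 4 ΔN libraries together and 2 to 66 counts in each of the others. Its edgeR adjusted p in ΔN was 0.409 against FL, 0.361 against WT and 0.255 against FLWF24, and DESeq2 called all 3 (adjusted p = 0.0441, 0.0368 and 0.00339). snoRNA:Me28S-A2629, a C/D snoRNA in Rbfox1, had 8, 48, 0 and 27 counts in null and 43, 5 and 86 in FL, and 0 to 5 counts in each library of FLWF24, ΔN and WT, with an adjusted p of 0.372 in ΔN against FL. snoRNA:Me28S-A774a, in RpS12, was counted in 1 null, 1 ΔN and 2 WT libraries, with 2, 40, 39 and 13 counts. Reads without molecular identifiers are not independent molecules.

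snoRNAs in introns of one host gene differed widely in level. RpS5a held 14 member snoRNAs, *dom* held 9, RpS7 held 7, Hrb98DE held 6, and CG10576 and RpS16 held 5 each. In RpS7, a ribosomal protein gene, snoRNA:Psi18S-1377d averaged 26.3 CPM and its name-sharing members 1377e, 1377b, 1377a and 1377c averaged 12.4, 7.42, 4.95 and 0.250 CPM, although all 5 are 136 to 139 bases long. Over the 7 snoRNAs of RpS7 the highest mean was 121-fold the lowest. The corresponding ratio was 71.2 in RpS16, led by snoRNA:Psi28S-1175c at 60.1 CPM, 46.4 in *dom*, which encodes a chromatin remodeller, 21.9 in RpS5a and 4.57 in Hrb98DE. Members that share a name and differ in the final letter guide the same site and resemble each other in sequence, so that reads which align to several copies were not counted for any.

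**Figure D4:**
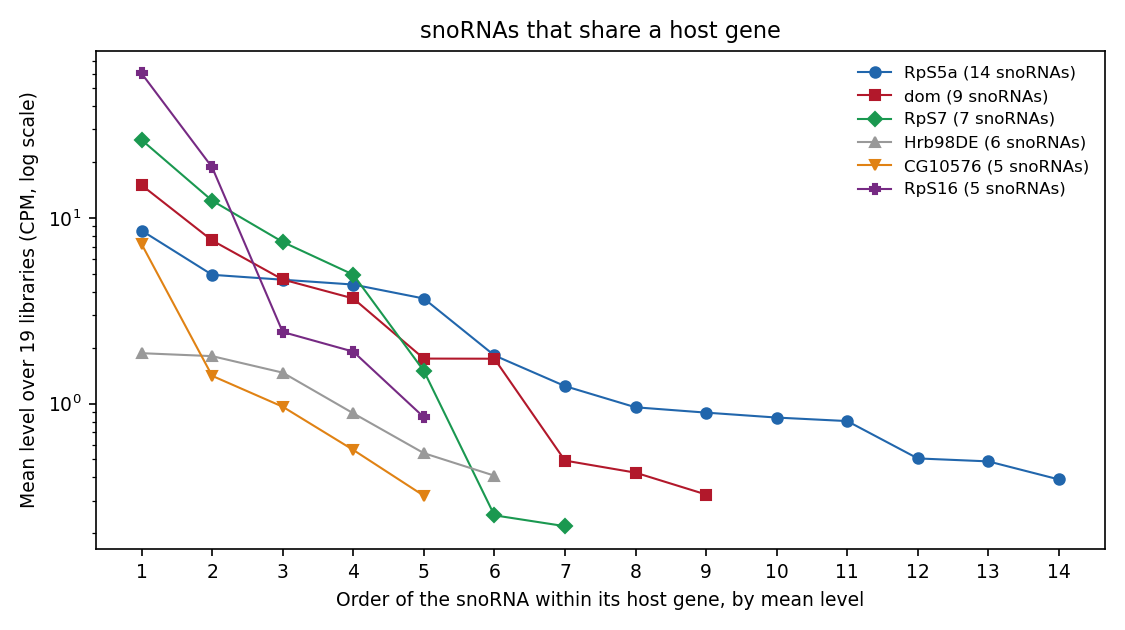
Mean level over the 19 libraries (CPM, log scale) of the snoRNAs in the 6 host genes with at least 5 members, ordered by level within each host. Levels within RpS7 fall from 26.3 to 0.218 CPM, while those within Hrb98DE stay between 1.87 and 0.408 CPM.

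The level of a snoRNA was compared with that of its host across the 19 libraries, since both start from one transcript. For the 28 snoRNAs with at least 1000 counts and a single host other than a Uhg gene, 14 correlations were positive and 14 negative, with a median r of -0.02, and 3 passed an adjusted p of 0.05 by r over the 28. These values rested in part on single libraries: without the 2 libraries farthest from the median host level the median r was 0.06, and 8 pairs exceeded 0.5 against 2 with all libraries. For snoRNA:Psi18S-1377d and RpS7 r went from 0.03 to 0.66, for snoRNA:Psi18S-1377a and RpS7 from 0.19 to 0.62, and for snoRNA:Psi28S-1175c and RpS16 from 0.04 to 0.54. On deviations from genotype means the median r was -0.08, with 10 of 28 positive.

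Both of the positive relations that passed were in RpS5a. snoRNA:Psi28S-1192a had r = 0.73 (permutation p = 0.00031, adjusted p = 0.00434) and rho = 0.68 (permutation p = 0.00174, adjusted p = 0.0162), with r = 0.72 without the 2 libraries farthest from the median host level and r = 0.70 on deviations from genotype means. snoRNA:Psi28S-2876 had r = 0.63 (permutation p = 0.00404, adjusted p = 0.0377) and rho = 0.58 (permutation p = 0.0111, adjusted p = 0.0778), with r = 0.57 and r = 0.48 under the same restrictions. The negative relation that passed by r was that of snoRNA:CG32479-a with Usp10 (r = -0.75, permutation p = 0.00025, adjusted p = 0.00434; rho = -0.72, permutation p = 0.00097, adjusted p = 0.0162). It held at r = -0.68 without the farthest 2 libraries, at r = -0.76 on deviations from genotype means and at r = -0.74 without null. By rho alone snoRNA:Dek-a and its host Dek passed as well (rho = -0.70, adjusted permutation p = 0.0162), while r was -0.46 (adjusted permutation p = 0.296).

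**Figure D5:**
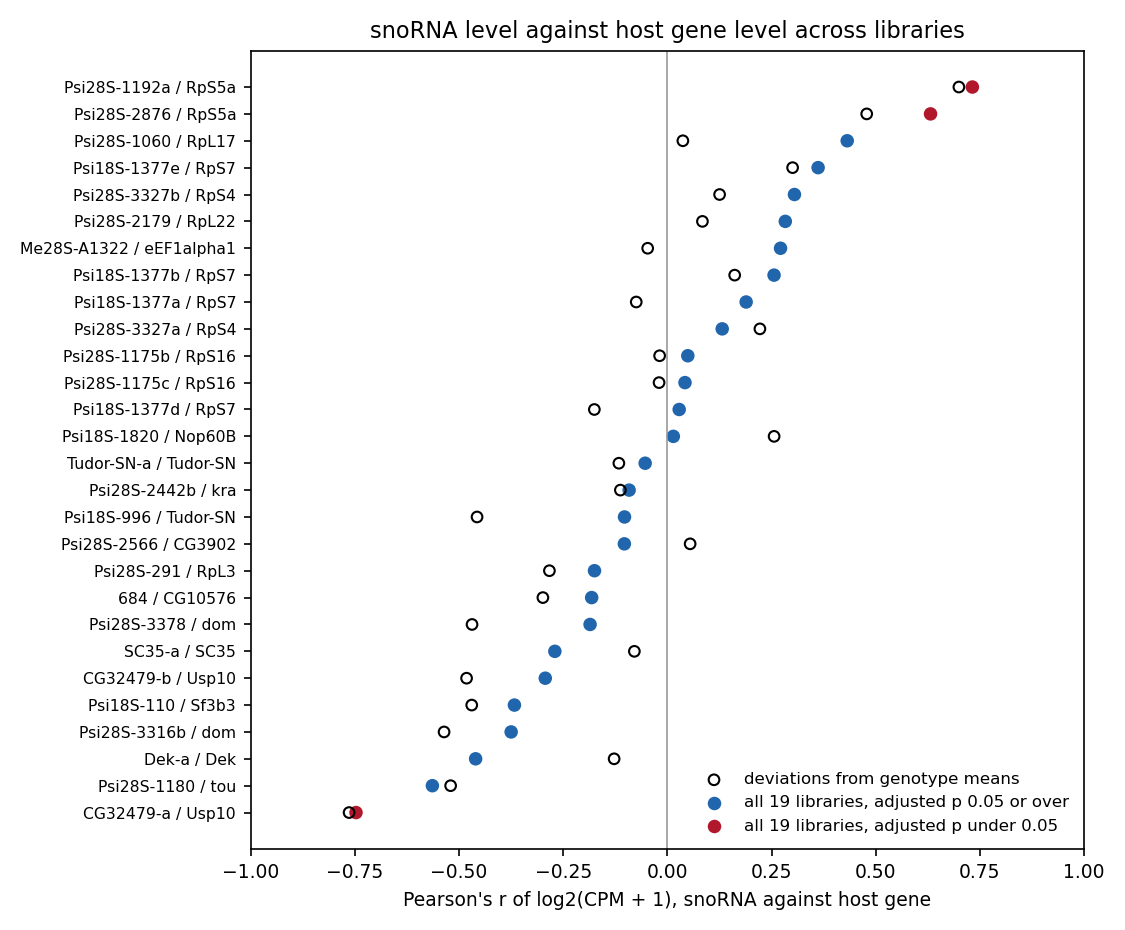
Pearson's r between the log2(CPM + 1) level of a snoRNA and that of its host gene across 19 libraries, for 28 snoRNAs with at least 1000 counts; filled points use all libraries (red where the adjusted permutation p is under 0.05) and open circles use deviations from genotype means. The points spread from -0.75 (snoRNA:CG32479-a and Usp10) to 0.73 (snoRNA:Psi28S-1192a and RpS5a) around a median of -0.02.

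For Uhg genes the host level was compared with the summed level of the member snoRNAs in its introns, with adjustment over the 4 hosts that had any. None passed. For Uhg4, whose 3 snoRNAs (snoRNA:Or-aca5, snoRNA:Or-CD2 and snoRNA:Psi28S-2949) had 8463 counts, r was 0.38 (permutation p = 0.112, adjusted p = 0.224) and rho 0.28 (permutation p = 0.238, adjusted p = 0.475), with r = 0.24 without the farthest 2 libraries. The ratio of snoRNA:Or-aca5 to Uhg4 ran from 0.383 to 4.58. Uhg2 (r = 0.39, permutation p = 0.102, adjusted p = 0.224; rho = 0.42, permutation p = 0.0742, adjusted p = 0.297; r = 0.25 without the farthest 2), Uhg5 (r = 0.17, permutation p = 0.477, adjusted p = 0.636; rho = -0.04, permutation p = 0.879, adjusted p = 0.879; r = 0.10) and Uhg1 (r = -0.03, permutation p = 0.898, adjusted p = 0.898; rho = -0.19, permutation p = 0.432, adjusted p = 0.576; r = -0.17) had only 50, 108 and 260 counts of hosted snoRNAs, so that a relation may not be detectable at this depth.

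Calls among the other host genes fell on ribosomal protein genes only, which were 21 of the 53 hosts. Whether the calls go with hosting snoRNAs or with ribosomal protein genes in general was not tested. All 49 hosts other than Uhg genes were tested, and 3 were called (6.12%, against 0.342% of all genes in that comparison), all in ΔN against FLWF24 and all ribosomal protein genes: RpS29 fell by 1.05 (SE 0.21, edgeR adjusted p = 0.0261), RpL36A by 0.99 (SE 0.20, adjusted p = 0.0261) and RpS12 by 0.83 (SE 0.18, adjusted p = 0.0375) on the log2 scale. The median log2 change of the 49 hosts was -0.15 in that comparison, against -0.53 over the 121 snoRNAs and -0.06 over all genes. Against WT the host medians were 0.21 in FLWF24, where 41 of 49 hosts had a positive log2 change, 0.04 in FL, 0.01 in null and -0.01 in ΔN. In FLWF24 against FL the host median was 0.12, with 35 of 49 positive. None of the hosts was called in these comparisons.

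The proteins that bind snoRNAs were listed as 12 genes. Fib, nop5, Nop56 and hoip make the C/D particle, with Fib (Fibrillarin) as its methylase. Nop60B, NHP2, Nop10 and Gar1 make the H/ACA particle, with Nop60B as its pseudouridine synthase, and CG10341, Nopp140, pont and rept are known, in flies or by their homologues, for assembly or transport of the particles. None of the 12 was called in any of the 8 comparisons. Fib came closest, with a mean of 529.1 ± 84.0 CPM in null (SD, n = 4). It averaged 953.1 ± 253.4 CPM in WT, 1039 ± 39.4 in ΔN and 1316 ± 218.6 in FLWF24 (n = 4 each), and 966.1 ± 108.5 in FL (n = 3). The log2 change of null was -0.81 against WT (SE 0.20, edgeR adjusted p = 0.0583) and -0.79 against FL (SE 0.24, adjusted p = 0.151), and every null library (451.2 to 639.1 CPM) was below each library of the others (756.0 to 1605 CPM).

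In null against FL 11 of the 12 had a negative log2 change, against 47.2% of all genes, with a median of -0.28 over the list and 0.05 over all genes. Of the 12, 2 had an unadjusted p under 0.05, where 11.7% of all genes did, Fib and Nop60B (log2 change -0.48, SE 0.21, adjusted p = 0.350). Nop10, a small H/ACA protein, averaged 18.9 ± 8.94 CPM in ΔN and 33.8 to 55.0 CPM in the other genotypes, with a log2 change of -1.51 in ΔN against FL (SE 0.41, adjusted p = 0.267). In FLWF24 against WT 10 of the 12 had a positive log2 change, with a median of 0.22, against 46.2% of all genes positive and an all-gene median of -0.05, led by CG10341 at 0.70 (SE 0.29, adjusted p = 0.444) and Gar1 at 0.57 (SE 0.17, adjusted p = 0.250). In ΔN against FLWF24 11 of the 12 had a negative log2 change, with a median of -0.18, against 54% of all genes and an all-gene median of -0.06. The other comparisons were less one-sided. FL against the same WT libraries had 9 of the 12 positive, with a median of 0.19, and FLWF24 against FL 9, with a median of 0.06. In null against WT 9 of the 12 were negative, with a median of -0.15. ΔN had 9 positive against WT (median 0.09), and 6 positive and 6 negative against FL.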

How the data were processed

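The authors cleaned reads with Trimmomatic, mapped them with HISAT2 to build dm6 and counted uniquely mapped reads per gene with HTSeq 0.11.1 at its defaults. They deposited 1 table of unnormalized counts, a column per library, with no replicates pooled. Reads of unspliced host transcripts that cover a snoRNA cannot be told apart from the mature snoRNA in such counts, and near-identical snoRNAs lose reads that align to more than 1 place.

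The 138 rRNA genes were removed. So were the 92 spike-in, 2 reporter and 5 summary entries, which without the rRNA genes made up 63.6% to 96.0% of all entries in a library. Symbols, positions and hosts came from a later Ensembl annotation of the same assembly. The FL libraries are named by their numbers in the table, 2 to 4, and were matched to the labels as a group, and all 19 value columns were used. The table's header holds 1 empty cell more than its rows, so its 19 names were given to the 19 columns in order, and the columns named C were taken as ΔN, the study's later name for that transgene. The assignment of columns to libraries rests on this reading. CPM were computed with TMM library sizes. Genes were tested by robust quasi-likelihood in edgeR 4.0.16 (R 4.3.3), in 1 fit of 19 libraries with 1 RUVs factor, after filterByExpr by genotype. Calls needed an adjusted p under 0.05 and an absolute log2 change of at least 0.5. Correlations used log2(CPM + 1) and 100000 permutations. The fit was tested on simulated data.

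Named members were all Uhg genes, the 10 most abundant snoRNAs, all called members, the 3 snoRNAs of smallest p in each comparison and their neighbours and hosts. Members and lists were chosen with earlier results of these data known. Alternatives were no factor, 2 factors, the stage score as covariate, RLE or upper-quartile scaling, DESeq2 1.42.0, no filter, a replicate block, and leaving out each library. The comparison of snoRNAs with hosts other than Uhg genes was chosen after seeing the data.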

Additional observations from a re-analysis of the deposited data

Results flagged for a closer look

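Single libraries stood apart from the other 3 of their genotype by Dixon's test in 12 of the 89 groups of 4 examined over the named members. The cut-off flags about 1 in 20 groups of independent, normally distributed values. These groups share libraries and some levels are at 0, so 12 of 89 cannot be set against that rate. Of the 12, 3 lay in null replicate 1: Uhg4 at 25.7 CPM (others 3.53 to 6.24), Uhg2 at 20.03 (others 5.45 to 7.14) and snoRNA:Psi18S-996 at 46.9 (others 14.96 to 16.7). In the ΔN libraries, Uhg4 was at 34.0 CPM in replicate 4 (others 20.2 to 20.6), Uhg2 at 3.01 in replicate 1 (others 10.01 to 10.7), Uhg3 at 12.5 in replicate 2 (others 1.89 to 3.30) and snoRNA:Me28S-A774a at 4.04 in replicate 2 (others at 0). In FLWF24, Uhg1 was at 35.1 CPM in replicate 3 (others 19.8 to 20.2) and snoRNA:Psi28S-3327c at 5.40 in replicate 4 (others 1.69 to 2.20). In WT, snoRNA:Psi18S-1377d was at 15.9 CPM in replicate 2 (others 31.2 to 33.8), snoRNA:gcl-a at 7.42 in replicate 3 (others 0.233 to 1.32) and snoRNA:Psi18S-1820 at 31.3 in replicate 1 (others 21.6 to 22.9).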

How the results depend on the processing

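The count of called members was small under every fit. In null against WT it was 1 as reported, 2 with no RUV factor, with 2 RUV factors, with upper-quartile scaling and with DESeq2, and 0 with the stage score as covariate. In ΔN against WT it was 1 as reported, 0 with the stage score, RLE scaling, upper-quartile scaling and no filter, and 3 with DESeq2. In ΔN against FLWF24 it was 0 as reported, 1 with no factor, 2 factors or the stage score, and 4 with DESeq2. In null against FL it was 0 as reported and 1 with no factor (Uhg1). With DESeq2 it was 1 in FLWF24 against FL, 1 for FL and 1 for FLWF24 set against WT, and 2 in ΔN against FL, all 0 as reported. Over all genes DESeq2 called 207 to 506 per comparison, edgeR as reported 2 to 76 and edgeR with no factor 0 to 1308. Without null replicate 3 edgeR called 311 genes in null against FL (60 as reported) and 278 in null against WT (76 as reported). Leaving out 1 library gave 0 to 4 in null against WT, with 4 without ΔN replicate 4, 0 to 1 for ΔN, FL and FLWF24 set against WT and for ΔN set against FLWF24, and 0 to 0 in the rest. Without null replicate 1 the count in null against WT was 2. With the replicate block it was 3 in null against WT and 0 in ΔN against WT. Library numbers did not pair the samples: deviations of same-numbered libraries were correlated at -0.43 to 0.25 over 36 pairs, and 5 of 19 libraries matched their own number best. Of the 34 named changes of members, none turned its direction in any alternative. These changes were picked for small p-values in the same data, and the alternatives reuse the same libraries. A reversal was therefore unlikely from the start. Over all alternatives 858 kept their side of the threshold, 37 passed and 23 no longer passed. The summed level of the Uhg genes in ΔN was 148 CPM as a plain share of gene counts (137 with TMM), and the other summed levels moved by less than 1 SD under the 3 scalings. The causes were not tested. Low counts limit most members, 77 of which had under 500 counts.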
